A study of Mus musculus with 6 samples.

Results

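Leukocyte integrins are surface receptors made of 1 alpha and 1 beta chain, and the ICAM genes encode surface proteins that some of them bind. Described here are 10 of these genes in mouse bone marrow mononuclear cells (BMMNCs), the marrow cells with a single round nucleus, among them monocytes, lymphocytes, progenitors and stromal cells. The genes are Itgal, Itgam, Itgax, Itgad, Itgb2, Itga4, Itgb1, Itgb7, Icam1 and Icam2. They were chosen by name with the levels and fold changes of these same 6 libraries already known, so their values between the scaffolds are a description, and their p-values support nothing beyond it. The 10 symbols matched 11 of the 51912 gene records of the deposited tables, because Itgam names 2 records.

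The cells were cultured for 10 days on hHVS (3 libraries) or on PCL (3 libraries). PCL usually stands for polycaprolactone, a polyester that breaks down in the body, and hHVS is not spelled out in the labels. All cells carried the genotype that the labels write as WIDETYPE, taken here as wild type, and no strain, sex, age or other treatment is given. Nothing in the labels ties the 3 libraries of a scaffold to separate cultures or animals. The p-values below thus describe the spread between these libraries only, and that spread may be technical.

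As background, the alpha chains encoded by Itgal, Itgam, Itgax and Itgad (CD11a, CD11b, CD11c and CD11d) all pair with the beta-2 chain encoded by Itgb2 (CD18). The resulting receptors let leukocytes bind ICAM proteins, and Itgam and Itgax with Itgb2 form complement receptors that take up particles coated with a fragment of C3. The alpha-4 chain (Itga4) pairs with beta-1 (Itgb1), which binds VCAM1 and fibronectin, or with beta-7 (Itgb7), which binds MAdCAM-1 and directs lymphocytes to the gut. Itgam is widely used as a surface marker of macrophages. Itgax marks dendritic cells and some tissue macrophages, and Itgad is known from splenic and other tissue macrophages.

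Library totals ranged from 72.1 to 83.6 M units, where 1 sequenced fragment is taken as about 4 units, or about 18.0 to 20.9 M fragments. Macrophage genes were abundant: Csf1r, the receptor that macrophages need to survive, had a mean level of 2064 ± 39.6 CPM on hHVS, against 2165 ± 103 CPM on PCL (SD, n = 3). CPM are units scaled to a library total of 1000000 with TMM factors, which correct for differences in composition between libraries. All 8 macrophage markers examined were well above the floor of 3 fragments per library, which lay between 0.146 and 0.167 CPM. In a principal component analysis the second component, with 23.3% of the variance, placed hHVS replicate 2 at -32.1 and PCL replicate 3 at -53.6, while the other libraries lay between 10.4 and 31.8. The labels name no batch. In bulk RNA, fewer cells of a type and less RNA per cell cannot be told apart.

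The quasi-likelihood test of edgeR covered 16364 genes. Of these, 0.299% were lower and 0.562% higher on hHVS at a Benjamini-Hochberg adjusted p under 0.05, together 0.862%. Of the 11 member records, all of which were tested, 1 was lower and 0 were higher. The lower one was Itgad. Nothing is read from that share, since the genes were chosen with this contrast known. With DESeq2, which put 3.55% of the genes it tested past the threshold, 2 members were lower (Itgad and Itgb7) and 2 higher (Icam1 and Itga4). In these 4 genes the libraries of the scaffolds did not overlap in CPM, and in the other 7 records they did; over all genes tested, 20.6% did not overlap. The median log2 fold change (hHVS minus PCL) was 0.01 over the 11 records and -0.01 over all genes tested.

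The first set of sequences shows why Itgam appears more than once. The files name both ENSMUSG00000030786 and ENSMUSG00000108596 Itgam. GENCODE M21, on GRCm38, the assembly also called mm10, keeps the name Itgam for the first (chr7:128062640-128118491, + strand). It calls the second Gm49368 (chr7:128062683-128128160, + strand) and marks its transcripts as readthrough, running past the end of Itgam toward Itgax. The transcripts Itgam-203 and Gm49368-201 each have 30 exons, 28 of them identical. They part after the shared exon at chr7:128116736-128116846, and exon 30 begins at 128117306 in the first and at 128126808 in the second. Below, the last 30 bases of the shared exon are in lower case and the first 30 bases of each exon 30, both coding, are in capitals.
Itgam-203: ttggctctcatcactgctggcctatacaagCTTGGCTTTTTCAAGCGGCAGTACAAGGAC
Gm49368-201: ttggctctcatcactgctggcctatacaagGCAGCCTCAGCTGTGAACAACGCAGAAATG
Of the 50-base words in the Itgam record's transcripts, 66.3% also occurred in the readthrough record. A read from the shared exons cannot be assigned to either record by its sequence, so the split between them depends on the authors' counting.

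The second set shows the longest stretch that Itgad shares with its neighbour Itgax. Itgax (chr7:128129547-128150657) begins 1386 bases after the readthrough record ends, and Itgad (chr7:128154376-128223816) begins 3718 bases after Itgax, all on the + strand. Of the 50-base words of Itgad, 8.43% also occurred in Itgax, in exons 12 to 15, 28 and 29 of the transcript Itgad-201. The longest identical run, in capitals, was 188 bases. It spans exons 12 to 14 of Itgad-201 (chr7:128189340-128189789) and exons 11 to 13 of Itgax-201 (chr7:128135612-128136062), and 15 bases on each side are in lower case.
Itgad-201: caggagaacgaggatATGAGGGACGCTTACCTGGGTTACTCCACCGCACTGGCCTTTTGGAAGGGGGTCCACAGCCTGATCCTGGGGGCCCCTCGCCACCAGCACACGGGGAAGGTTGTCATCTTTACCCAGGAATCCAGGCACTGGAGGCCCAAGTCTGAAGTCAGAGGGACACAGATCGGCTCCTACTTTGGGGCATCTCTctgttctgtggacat
Itgax-201: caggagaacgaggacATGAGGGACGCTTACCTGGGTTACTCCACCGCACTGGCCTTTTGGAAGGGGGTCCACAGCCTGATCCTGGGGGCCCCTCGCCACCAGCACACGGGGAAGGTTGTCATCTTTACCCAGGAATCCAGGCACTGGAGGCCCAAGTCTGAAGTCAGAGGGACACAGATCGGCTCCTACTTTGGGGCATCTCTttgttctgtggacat
No 50-base word was shared between Itgal and any other gene, or between Itgad and either Itgam record.

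Itgb2, the beta-2 chain, was the most abundant of the 10 genes per length on both scaffolds. It had 1319.8, 1358 and 1299 CPM in hHVS replicates 1, 2 and 3, against 1311, 1569 and 1129.9 CPM in PCL replicates 1, 2 and 3. The hHVS values lay inside the range of the PCL values. Its log2 fold change was -0.01 ± 0.12 (SE, adjusted p = 0.976, edgeR). Itgb2 lies at chr10:77530252-77565708.

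Itgam, the alpha chain of Mac-1 and complement receptor 3, was the most abundant alpha chain once its records were summed. The sum was 754, 747 and 789 CPM in hHVS replicates 1 to 3, against 799.7, 956 and 485 CPM in PCL replicates 1 to 3. PCL replicate 3 was the lowest and PCL replicate 2 the highest of the 6, and the hHVS libraries lay between them. The summed log2 fold change was 0.03 ± 0.22 (adjusted p = 0.966, edgeR, fitted after the records were seen to overlap).

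The share of Itgam units that the table puts in the readthrough record varied between libraries of 1 scaffold. It was 56.8%, 43.5% and 69.2% in hHVS replicates 1, 2 and 3, against 57.4%, 62.1% and 42.5% in PCL replicates 1, 2 and 3. The lowest shares were those of PCL replicate 3 and hHVS replicate 2, the libraries set apart by the second component. The hHVS spread was wider record by record than in the sum: 330.4 ± 89.4 CPM in the Itgam record and 433 ± 110.2 CPM in the readthrough record, against 763 ± 22.2 CPM in the sum (SD, n = 3). Neither record alone passed the test (adjusted p = 0.984 and 0.971, edgeR).

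**Figure D1:**
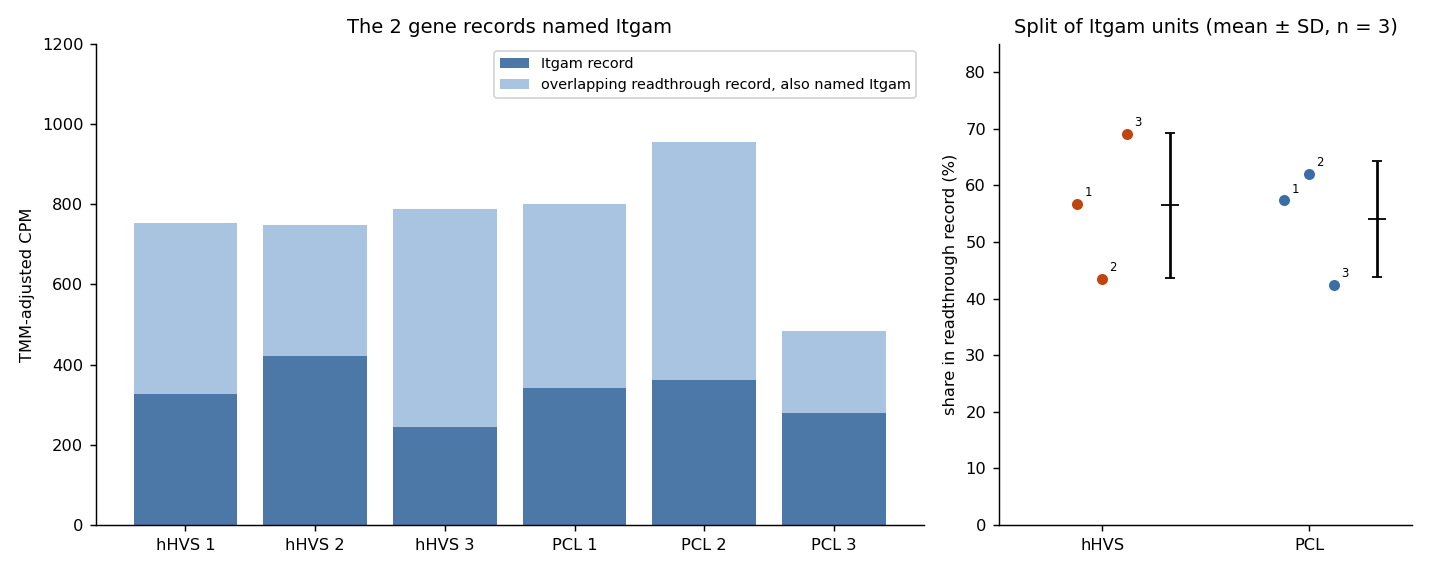
Left, TMM-adjusted CPM of both gene records named Itgam, stacked, in each library; right, the share of their summed units in the readthrough record, with mean ± SD (n = 3). The sum lies between 747 and 789 CPM in the hHVS libraries and between 485 and 956 CPM in the PCL libraries, while the share in the readthrough record runs from 42.5% to 69.2%.

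Itgax, the alpha chain of complement receptor 4, had 480.4, 483 and 461 CPM in hHVS replicates 1 to 3, against 476, 570.3 and 337 CPM in PCL replicates 1 to 3. The groups overlapped, with PCL replicate 3 lowest and PCL replicate 2 highest, as for summed Itgam and for Itgb2. The difference was 0.04 ± 0.17 on the log2 scale (adjusted p = 0.944, edgeR). Itgax is often used to mark dendritic cells, and the 9 dendritic cell markers examined were low: their summed level was 5.48 to 6.95 CPM on hHVS and 5.94 to 9.09 CPM on PCL. Of these markers Flt3 and Siglech stayed under the floor in all 6 libraries. Batf3, which was the most abundant of them, averaged 3.997 ± 0.323 CPM on hHVS and 4.71 ± 1.70 CPM on PCL.

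Itgal, the alpha chain of LFA-1 (chr7:127296260-127335138), varied most among the PCL libraries. It had 278, 241 and 252 CPM in hHVS replicates 1 to 3, against 209.6, 136 and 322 CPM in PCL replicates 1 to 3. The order of the PCL libraries was the reverse of that for Itgam and Itgax: replicate 3 was highest and replicate 2 lowest. Between the scaffolds it differed by 0.21 ± 0.27 on the log2 scale (adjusted p = 0.79, edgeR). It was 0.57 without PCL replicate 3 and -0.05 without PCL replicate 2, so those libraries set its size and sign. Lymphocytes also express Itgal. Of the 8 T cell markers, Cd3e, Cd3g, Cd2, Cd8a and Trac were at 0 in all hHVS libraries, and on PCL their highest mean was that of Cd3g (0.145 CPM). Cd3d averaged 0.0305 CPM on hHVS, against 0.0521 CPM on PCL. Lck averaged 0.213 CPM on hHVS, against 0.279 CPM on PCL. The summed T cell list was 5.77 to 7.38 CPM on hHVS and 2.11 to 4.80 CPM on PCL, most of it Cd4, a gene that macrophages can express. How far other cells contribute to Itgal was not tested.

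Itgad, the alpha chain CD11d, was the rarest of the 10 genes and fell on hHVS. It had 0.959, 0.874 and 0.888 CPM in hHVS replicates 1, 2 and 3, against 3.27, 3.97 and 3.86 CPM in PCL replicates 1, 2 and 3. All hHVS libraries were lower than any PCL library, with a wide gap between the groups. The mean was 0.907 ± 0.0456 CPM on hHVS and 3.70 ± 0.379 CPM on PCL (SD, n = 3). On the log2 scale the difference was -2.03 ± 0.19, or 4.08-fold lower, with an adjusted p of 0.00899 (edgeR). With 1 library left out at a time the adjusted p ranged from 0.021 to 0.0499.

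These levels rest on few fragments. The units of Itgad correspond to about 17 to 18 fragments in each hHVS library, against about 62.5 to 75 fragments in each PCL library. Counting that many fragments alone would give a spread of 24.0% on hHVS and 11.97% on PCL, while the observed SD was 5.03% and 10.2% of the mean. The closeness of the hHVS libraries is therefore tighter than counting error, and their SD is no guide to the precision of the level. The SE of 0.19 and the adjusted p from edgeR draw on the same spread and may be too small. With DESeq2 the SE was 0.27, and Itgad also passed the threshold. Itgax, with which Itgad shares sequence, did not move with it: the ratio of Itgax to Itgad in FPKM was 475, 525 and 492 in hHVS replicates 1 to 3, against 137, 135 and 82.0 in PCL replicates 1 to 3. FPKM are the authors' values scaled by gene length and library size.

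Several annotated genes overlap exons of Itgad. Cox6a2, on the opposite strand, had 2.35 to 3.42 CPM in the hHVS libraries and 1.45 to 4.26 CPM in the PCL libraries, so its groups overlapped. The opposite-strand transcript 4931431B13Rik had 0 to 0.0523 CPM on hHVS, against 0.0828 to 0.445 CPM on PCL. The sources used here do not say whether strand entered the counting, so reads from the overlapping exon parts may have been assigned to either gene. The pseudogene Gm17831, on the same strand, was at 0 in all 6 libraries and shares 5.12% of the words of Itgad.

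The 3 genes whose pattern over the 6 libraries was nearest to that of Itgad were Gm15156, 4632428C04Rik and Sh2d1b1. The measure was the root mean square difference of log2 CPM, each gene centred on its own mean, among 12438 genes with a mean of at least 1 CPM. It was 0.25 for Gm15156, which had 0.709, 0.813 and 1.10 CPM on hHVS, against 2.50, 3.23 and 3.04 CPM on PCL. It was also 0.25 for 4632428C04Rik, with 0.934 to 1.04 CPM on hHVS, against 2.29 to 3.32 CPM on PCL. Sh2d1b1, which encodes an adaptor of SLAM family receptors, had a difference of 0.27, with 4.64 to 5.89 CPM on hHVS and 15.8 to 27.2 CPM on PCL.

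**Figure D2:**
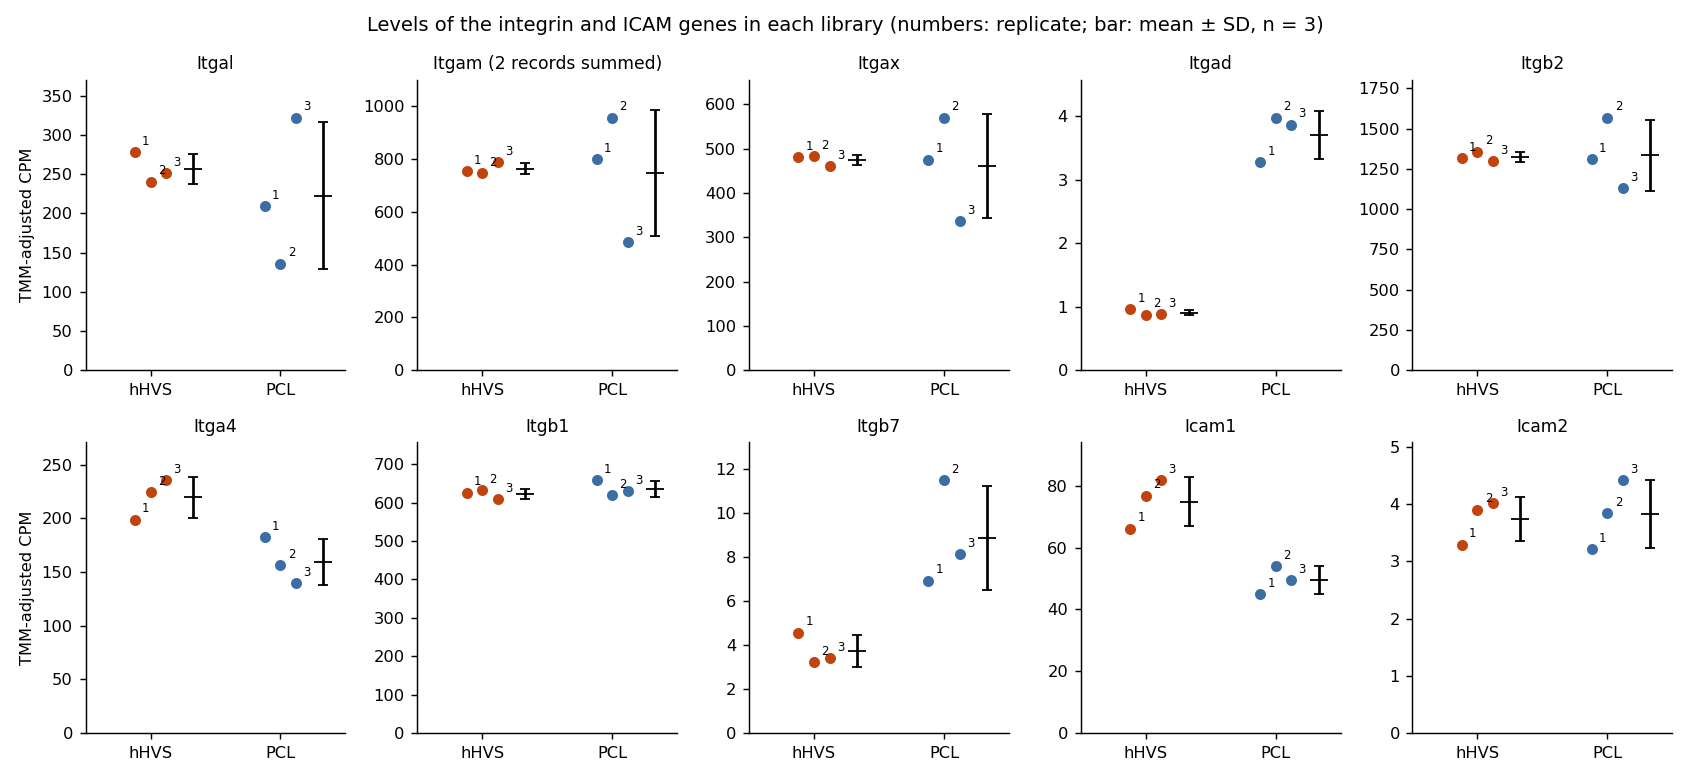
TMM-adjusted CPM of the 10 genes in each library, with hHVS left of PCL, replicate numbers beside the points and mean ± SD (n = 3) as a bar; every axis starts at 0. The libraries separate for Itgad and Itgb7 (lower on hHVS) and for Itga4 and Icam1 (higher on hHVS), and overlap for the other genes.

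Set against each other per length, the alpha chains of Itgb2 kept nearly the same mix on both scaffolds except for Itgad. Itgam with its records summed made up 53.0% ± 1.43 of the summed alpha chain FPKM on hHVS and 52.9% ± 6.96 on PCL (SD, n = 3). Itgax made up 33.6% ± 1.197 on hHVS and 33.7% ± 1.596 on PCL. Itgal made up 13.3% ± 0.867 on hHVS and 13.1% ± 8.39 on PCL, where single libraries ranged from 6.16% to 22.4%. Itgad was a trace: 0.071%, 0.0662% and 0.0658% in hHVS replicates 1 to 3, against 0.246%, 0.261% and 0.392% in PCL replicates 1 to 3. The sum of the alpha chains was 0.677 ± 0.0246 of the Itgb2 level on hHVS and 0.644 ± 0.0491 on PCL, with overlapping libraries. The mean shares of the 3 abundant chains differed between the scaffolds by less than their SD.

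**Figure D3:**
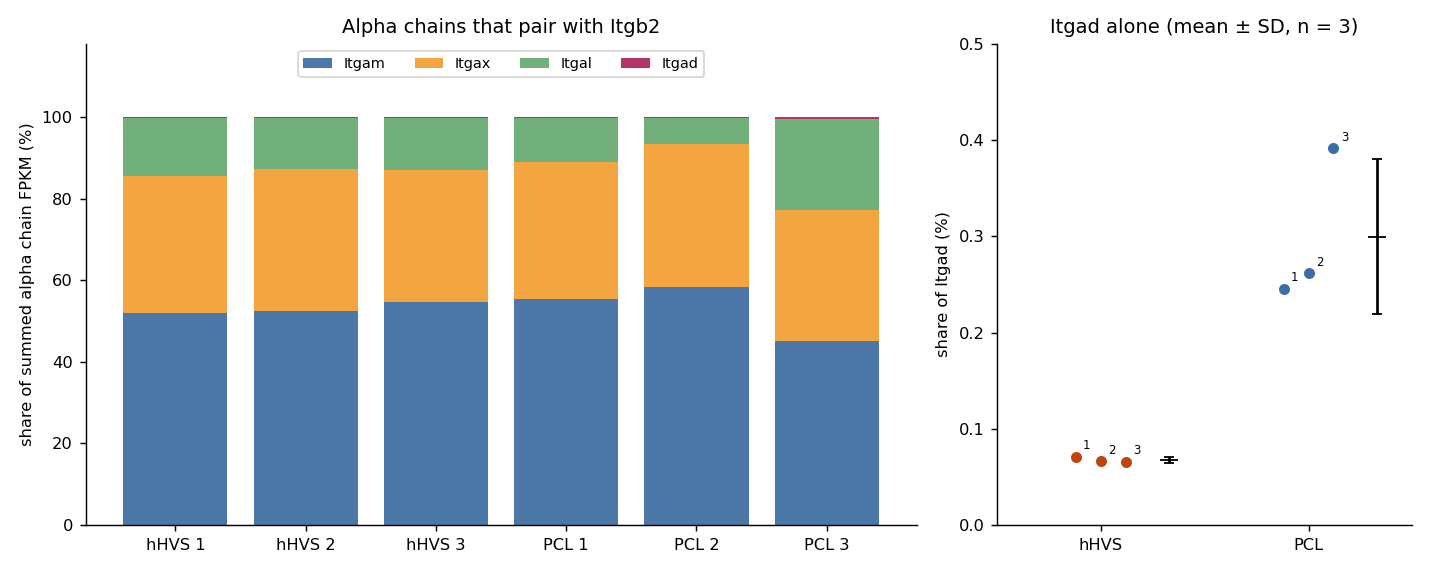
Left, share of each alpha chain in the summed FPKM of Itgam (both records), Itgax, Itgal and Itgad in each library; right, the share of Itgad alone with mean ± SD (n = 3). Itgad holds at most 0.071% in the hHVS libraries and at least 0.246% in the PCL libraries, at most a thin line in the stacked bars.

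Itga4, the alpha-4 chain (chr2:79255426-79333123), was higher on hHVS in every library but did not pass edgeR's test. It had 199, 224 and 235 CPM in hHVS replicates 1, 2 and 3, against 183, 156 and 139.9 CPM in PCL replicates 1, 2 and 3. The lowest hHVS library was above the highest PCL library by a small margin. The log2 fold change was 0.46 ± 0.11, or 1.38-fold (adjusted p = 0.152, edgeR), while DESeq2 put it past the threshold (adjusted p = 0.0122).

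Itgb7, the beta chain that forms the gut-homing integrin with alpha-4 (chr15:102215995-102231944, - strand), was lower on hHVS in every library. It had 4.56, 3.22 and 3.38 CPM in hHVS replicates 1, 2 and 3, against 6.92, 11.5 and 8.14 CPM in PCL replicates 1, 2 and 3. The groups did not overlap. The log2 fold change was -1.25 ± 0.23, or 2.38-fold lower, and it missed the threshold in edgeR (adjusted p = 0.0753). It passed with DESeq2 (adjusted p = 3.75e-05) and in edgeR scaled by library totals alone (adjusted p = 0.0493).

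Itgb1, the partner that alpha-4 shares with many other alpha chains (chr8:128685654-128733200), was among the most even of the genes. It had 626, 633 and 609 CPM in hHVS replicates 1 to 3, against 658, 619 and 630.0 CPM in PCL replicates 1 to 3, and the groups overlapped. Its log2 fold change was -0.03 ± 0.06 (adjusted p = 0.872, edgeR).

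Per length, beta-1 exceeded alpha-4 by far, and beta-7 was below it on both scaffolds. The ratio of Itga4 to Itgb1 in FPKM was 0.0926, 0.103 and 0.113 in hHVS replicates 1 to 3, against 0.081, 0.0736 and 0.0648 in PCL replicates 1 to 3. The ratio of Itgb7 to Itga4 was 0.117, 0.0727 and 0.0731 in hHVS replicates 1 to 3, against 0.193, 0.375 and 0.296 in PCL replicates 1 to 3. Neither ratio overlapped between the scaffolds. Beta-1 stood 115 ± 20.9 times above beta-7 on hHVS and 50.8 ± 13.9 times on PCL (SD, n = 3). No test was made of these ratios, whose genes were chosen with the contrast known; 3 against 3 libraries could give no exact permutation p below 0.1.

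**Figure D4:**
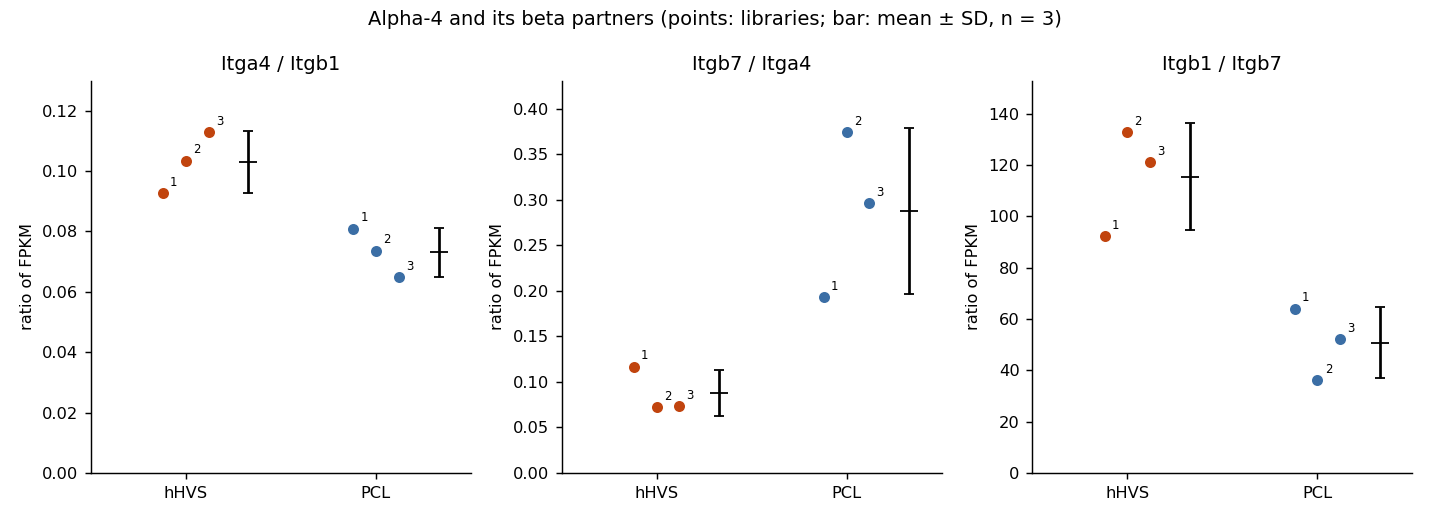
Ratios of FPKM in each library for Itga4 to Itgb1, Itgb7 to Itga4 and Itgb1 to Itgb7, with hHVS left of PCL, replicate numbers beside the points and mean ± SD (n = 3). In the middle panel the hHVS libraries lie between 0.0727 and 0.117 and the PCL libraries between 0.193 and 0.375.

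Icam1, a ligand of the Itgal and Itgam integrins that many cells display when activated (chr9:21015985-21028817), was higher on hHVS in every library. It had 66.1, 76.8 and 81.8 CPM in hHVS replicates 1, 2 and 3, against 44.95, 54.0 and 49.4 CPM in PCL replicates 1, 2 and 3. The groups did not overlap. The log2 fold change was 0.60 ± 0.11, or 1.51-fold, short of the threshold in edgeR (adjusted p = 0.0677) and past it in DESeq2 (adjusted p = 0.000169).

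The promoter of Icam1 is shown because NF-kappaB is a known activator of the gene, and a list of NF-kappaB genes can be set beside it. From RefSeq on GRCm38.p6, it covers chr9:21015690-21015989 on the + strand, from 250 bases before the start of the gene to 50 after it. The match to GGAANTTCC, a form of the NF-kappaB motif that reads the same on both strands, is in capitals.
Icam1 promoter: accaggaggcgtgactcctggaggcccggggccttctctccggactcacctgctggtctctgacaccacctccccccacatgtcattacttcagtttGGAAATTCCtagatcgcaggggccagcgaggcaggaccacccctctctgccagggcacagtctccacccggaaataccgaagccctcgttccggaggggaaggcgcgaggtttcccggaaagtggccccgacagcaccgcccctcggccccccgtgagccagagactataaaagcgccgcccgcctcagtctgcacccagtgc
This motif occurred in 0.928% of the 32851 promoters of the same length. Of the other members, Itga4, Itgam, Itgax, Itgb1 and Itgb7 also had a promoter in that table, and those letters did not occur in them. Other motifs searched for were AGGAAGT, known for PU.1 or ETS factors, and TGTGGT, known for RUNX factors. AGGAAGT occurred in Itgb7 (9.35% of all promoters) and TGTGGT in Itga4 and Itgax (16.8%), and neither occurred in Icam1. The matches are a description of the sequence and were not measured as binding sites. Whether NF-kappaB acted on Icam1 was not tested. Of the 12 genes of NF-kappaB factors and their feedback genes, 0 rose and 0 fell in edgeR, with 1 below an unadjusted p of 0.05 (2149 of all 16364 genes, 13.1%), and 0 passed with DESeq2 or limma-voom. Their median log2 fold change was -0.03. Rela, the most abundant of them, averaged 130.2 ± 4.6 CPM on hHVS and 134 ± 1.72 CPM on PCL.

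Icam2, a ligand of Itgal integrins known from endothelial cells and platelets (chr11:106377656-106388075, - strand), was low. It had 3.29, 3.91 and 4.02 CPM in hHVS replicates 1 to 3, against 3.22, 3.85 and 4.42 CPM in PCL replicates 1 to 3, and the groups overlapped fully. The log2 fold change was -0.03 ± 0.18 (adjusted p = 0.958, edgeR). Endothelial markers were mixed: Cdh5, Tek, Tie1 and Emcn averaged at most 0.669 CPM on either scaffold. Vwf averaged 56.1 ± 7.38 CPM on hHVS, against 84.1 ± 31.0 CPM on PCL. Every hHVS library was below every PCL library for Kdr, with means of 6.82 ± 0.211 CPM (hHVS) against 9.07 ± 0.518 CPM (PCL). Kdr did not pass the test (adjusted p = 0.192, edgeR). The libraries overlapped for Pecam1, with means of 1.56 CPM (hHVS) against 1.98 CPM (PCL). The summed list of 7 was 56.7 to 70.0 CPM on hHVS, against 66.2 to 126 CPM on PCL, and its part in the level of Icam2 was not tested.

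**Figure D5:**
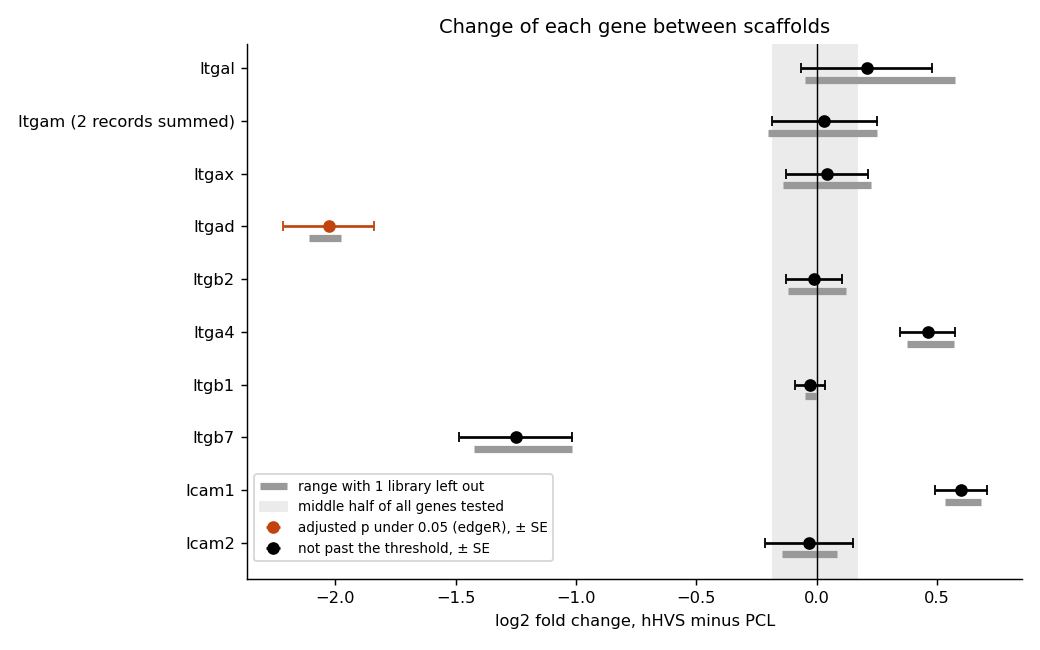
Log2 fold change of each gene, hHVS minus PCL, from the edgeR fit with its SE (n = 3 each); grey bars give the range with 1 library left out, and the pale band the interquartile range of all 16364 genes tested. Itgad (-2.03) is the only one past an adjusted p of 0.05, and Itgb7 (-1.25), Icam1 (0.60) and Itga4 (0.46) keep their sign in all 6 leave-outs.

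Ordered per length, the levels on hHVS ran from Itgb2 (384 ± 12.2 FPKM) through Itgam, Itgb1, Itgax and Itgal to Icam1, Itga4, Icam2, Itgb7 and Itgad (0.176 ± 0.00685 FPKM, SD, n = 3). On PCL the order ran from Itgb2 (406 ± 58.5 FPKM) through Itgb1, Itgam, Itgax and Itgal to Itga4, Icam1, Itgb7, Icam2 and Itgad (0.761 ± 0.0733 FPKM). On both scaffolds Itgam and Itgb1 overlapped between libraries, as did Icam1 and Itga4, and on PCL Itgam and Itgax did too. Icam2 lay above Itgb7 on hHVS, at 1.72 ± 0.202 and 1.19 ± 0.222 FPKM, and below it on PCL, at 1.85 ± 0.311 and 2.98 ± 0.739 FPKM.

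Other integrin chains gave no call. Of 13 further alpha chains 11 were tested, and 0 rose and 0 fell in edgeR, with 1 at an unadjusted p under 0.05. DESeq2 and limma-voom made 0 calls. Itga5, the fibronectin receptor chain and the most abundant of them, averaged 254 ± 5.59 CPM on hHVS and 283 ± 38.0 CPM on PCL. Of 6 further beta chains 4 were tested, again with 0 calls in edgeR, 1 at an unadjusted p under 0.05 and 0 in DESeq2 or limma-voom. Over all genes tested, 13.1% had an unadjusted p under 0.05. Itgb5, a partner of the alpha-v chain, was the beta chain below it. Its mean was 459 ± 25.4 CPM on hHVS and 528 ± 23.6 CPM on PCL (adjusted p = 0.292, edgeR). All its hHVS libraries were lower than any PCL library, while 20.6% of all genes tested did not overlap in either direction. The median log2 fold change was 0.16 over the alpha chains and -0.01 over the beta chains.

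Among 18 further ligands of leukocyte integrins, 12 were tested; 3 rose and 0 fell, and their median log2 fold change was -0.15. Over all genes tested 0.562% rose and 0.299% fell, but this list, like the others here, was chosen with results of these data known, so its share supports nothing. Vcam1 encodes a ligand of the alpha-4 integrins. It had 29.5, 14.3 and 11.5 CPM in hHVS replicates 1 to 3, against 4.604, 2.86 and 4.07 CPM in PCL replicates 1 to 3. The groups did not overlap, and hHVS replicate 1 was the highest. Its difference was 2.26 ± 0.37 on the log2 scale (adjusted p = 0.0497, edgeR). Spp1, which encodes osteopontin, a matrix protein that alpha-4 and other integrins bind, averaged 1733 ± 274 CPM on hHVS, against 882 ± 146 CPM on PCL, a difference of 0.97 ± 0.15 on the log2 scale (adjusted p = 0.0437, edgeR). C3, whose fragment is bound by the Itgam and Itgax receptors, averaged 21.2 ± 3.90 CPM on hHVS, against 8.71 ± 1.75 CPM on PCL, a difference of 1.28 ± 0.19 on the log2 scale (adjusted p = 0.0374, edgeR). With any 1 library removed Vcam1 and C3 no longer passed, at adjusted p up to 0.154 and 0.149. Spp1 passed when PCL replicate 3 was removed (0.031) and in none of the other 5 leave-outs, where adjusted p reached 0.167. The count was also 3 with DESeq2, but 2 with limma-voom, 1 with library totals and 0 without a filter on low counts. Madcam1, the ligand of alpha-4 beta-7, had 0 counts in all 6 libraries. Stromal cells are a known source of Vcam1, and the 7 stromal markers summed to 8.83 to 49.5 CPM on hHVS and 36.4 to 140.4 CPM on PCL, with none at 0 in all libraries. Of the 6 tested, 0 had a log2 fold change above 0, against 47.8% of all genes tested. Their median was -1.04, and 0 passed the threshold in edgeR. The part of stromal cells in these levels was not tested.

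Of 22 genes that activate integrins from inside the cell or link them to actin, 21 were tested, with a median log2 fold change of 0.02. EdgeR called 1 higher on hHVS and 0 lower, beside 0.562% and 0.299% of all genes. Before adjustment 5 of the 21 had p below 0.05, beside 13.1% of all genes. DESeq2 called 2 higher and 0 lower, where 3.55% of everything it tested passed. As this list was picked after earlier results were seen, its shares support nothing. The gene that rose in edgeR was Rasgrp2, an exchange factor that switches on the small GTPase Rap1 in leukocytes and platelets. It had 22.4, 20.8 and 19.0 CPM in hHVS replicates 1 to 3, against 10.0, 10.3 and 10.5 CPM in PCL replicates 1 to 3, and every hHVS library was above every PCL library. The log2 fold change was 1.01 ± 0.10 (adjusted p = 0.00899, edgeR), and the adjusted p stayed under 0.05 in 5 of the 6 leave-outs, with 0.0553 without hHVS replicate 1. Tln1 encodes talin, which binds the tail of beta chains, and averaged 1344 ± 37.2 CPM on hHVS, against 1315 ± 261 CPM on PCL.

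Of 15 genes that signal below beta-2 integrins, all 15 were tested, and 0 rose and 0 fell in edgeR, with 3 at an unadjusted p under 0.05. Over all genes tested in edgeR, 13.1% had an unadjusted p under 0.05. DESeq2 called 1 higher, with 3.55% of the genes it tested past the threshold, and limma-voom called 0. Fcer1g, which encodes an adaptor of these receptors, averaged 753 ± 50.2 CPM on hHVS and 760.3 ± 97.4 CPM on PCL. Of 12 genes of selectins, their ligands and passage through vessel walls, 9 were tested, and 0 rose and 0 fell in edgeR, with 1 at an unadjusted p under 0.05 and 0 in DESeq2 or limma-voom. Cd44, a hyaluronan receptor, averaged 355 ± 20.4 CPM on hHVS and 398 ± 64.2 CPM on PCL. The median log2 fold change was 0.05 over the signalling genes and 0.01 over the selectin list.

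The 10 marker lists for macrophages and other cell types held 42 genes tested in edgeR. Of these, 0 passed the threshold and 11 had an unadjusted p under 0.05. Over all genes tested, 0.862% passed the threshold and 13.1% had an unadjusted p under 0.05. Nothing is read from these shares, since the lists were chosen with results of these data known. DESeq2 put 3.55% of all the genes it tested past the threshold. Among the 69 listed genes it called 5 higher on hHVS. These were the macrophage genes Lyz2, Mertk and Mrc1, the T cell marker Cd4 and the platelet gene Pf4. It called 3 lower, the stromal genes Dcn and Lum and the T cell gene Cd3g, and limma-voom called Cd3g lower. Lum was not among the 42 genes tested in edgeR. Lum and Cd3g were at 0 in all hHVS libraries. On PCL, Lum had 0.0523, 0.0552 and 0.477 CPM in replicates 1 to 3, so only replicate 3 was above the floor. Cd3g had 0.144, 0.138 and 0.155 CPM in PCL replicates 1 to 3, at or under the floor. The 8 macrophage markers summed to 19591 to 20702 CPM on hHVS and 14726 to 17062 CPM on PCL, most of it Lyz2 (13298 ± 684 CPM on hHVS and 9682 ± 1134 CPM on PCL). This sum did not overlap between the scaffolds, while 20.6% of all genes tested did not overlap in either direction. Its genes did not all move together. Lyz2, Mrc1, Mertk and Adgre1 were higher on hHVS without overlap, and Cd68, C1qa, Csf1r and Fcgr1 overlapped. Csf1r and Fcgr1 averaged lower on hHVS, Fcgr1 at 86.5 ± 4.26 CPM against 93.5 ± 7.53 CPM on PCL. The part of these genes' cells in the levels of the integrin genes was not tested. The 8 neutrophil markers summed to 12.3 to 14.3 CPM on hHVS and 11.4 to 14.1 CPM on PCL. Markers of B cells (at most 1.85 CPM), natural killer cells (1.10 CPM) and mast cells and basophils (0.759 CPM) were lower still in any library. The B cell sum was 1.06 to 1.85 CPM on hHVS, against 0.693 to 1.03 CPM on PCL. The mast cell and basophil sum was 0.131 to 0.267 CPM on hHVS, against 0.275 to 0.759 CPM on PCL, with 5 of its 6 genes under the floor in all libraries. The 5 megakaryocyte and platelet markers summed to 54.5 to 73.1 CPM on hHVS, against 32.1 to 51.9 CPM on PCL, nearly all of it Pf4. Gp1ba ran opposite to that sum: PCL libraries averaged 2.45 CPM, hHVS libraries only 1.49 CPM, and their ranges stayed apart. It did not pass edgeR's test (log2 fold change -0.72, adjusted p = 0.199). Ppbp averaged lower on hHVS and Itga2b higher, both with overlap, and Gp9 stayed under the floor of a library in all 6. The platelet content of the cultures was not tested.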

How the data were processed

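Polyadenylated RNA of BMMNCs was sequenced in 6 stranded libraries, per the labels' protocols, and groups were taken from the sample titles. The authors' 2 deposited tables hold estimated counts and FPKM values for 51912 gene records. The submitters' processing notes name FastQC, MultiQC, STAR, featureCounts and mm10. The sources used here give no versions and do not say which tool made which table. The count table had been assumed to hold read counts, but among its small deposited estimated counts 4, 8 and 12 stand above both neighbours (6544, 3210 and 1929 cells). The most frequent value is 1 (6904 cells), and 6 and 10 form lower peaks (1627 and 1157 cells). Taking 1 fragment as about 4 units is an inference from these values. They were used as deposited. Floors cover counting error only.

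Genes passing filterByExpr (minimum count 10) were fitted with TMM factors and edgeR 4.0.16's quasi-likelihood test in R 4.3.3, group as the only term, with Benjamini-Hochberg adjustment over all 16364 genes; the fit was checked on simulated data. Alternatives used DESeq2 1.42.0 and limma 3.58.1 (voom). Levels of different genes were compared in FPKM. Positions, overlaps and 50-base words came from GENCODE M21, matched by identifier, and the promoter from RefSeq.

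The members and all gene lists were chosen with earlier results of these data known. Named genes were all members; up to 3 genes past the threshold per other list, whose higher group averaged 1 CPM or more, or else the most abundant; and the 3 genes nearest to the member with the largest change. Some genes beyond this rule were named after their values were seen: Csf1r, Tln1, Madcam1, Cd3e and the other cell type markers given with values.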

Additional observations from a re-analysis of the deposited data

How the results depend on the processing

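The direction of Itgad, Itgb7, Icam1, Itga4 and Itgb1 was the same under all 7 alternatives and all 6 leave-outs, while the signs of the other members, none of them past the threshold, were not stable. The call of Itgad held in all of these except with a replicate block (log2 fold change -2.02, adjusted p = 0.0592). DESeq2 added Itgb7 (-1.25), Icam1 (0.60) and Itga4 (0.46), and library totals added Itgb7 (-1.33). So 2 members were higher with DESeq2, 2 were lower with DESeq2 or library totals, and 0 were lower with the block; the causes were not tested. With the block Rasgrp2 (adjusted p = 0.0592) and the 3 ligands Vcam1, C3 and Spp1 (0.0592, 0.118 and 0.159) did not pass either. With 1 library left out 0 members were higher and 1 was lower in every case.

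Over all genes, 92 higher and 49 lower became 375 and 281 with DESeq2, 54 and 22 without a filter on low counts, 26 and 10 with the replicate block, and 71 and 74 with library totals; leaving out 1 library gave 20 to 94 higher and 10 to 60 lower. The labels do not say whether the number in the titles pairs the libraries. The deviations of same-numbered libraries from their group means correlated across genes at 0.117, -0.00951 and -0.0607 for numbers 1, 2 and 3. Differently numbered pairs ran from -0.157 (hHVS 2 with PCL 1) to 0.153 (hHVS 2 with PCL 3). With 3 libraries per group, and genes that are not independent replicates, these values cannot settle whether the libraries are paired. Library totals moved the median of all genes by -0.08.

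With 1 library left out, the log2 fold change ranged from -2.11 to -1.97 for Itgad, -1.42 to -1.02 for Itgb7, 0.53 to 0.68 for Icam1, 0.37 to 0.57 for Itga4, -0.05 to 0.57 for Itgal, -0.20 to 0.25 for summed Itgam, -0.14 to 0.22 for Itgax, -0.12 to 0.12 for Itgb2, -0.05 to -0.00454 for Itgb1 and -0.14 to 0.08 for Icam2.

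CPM in place of FPKM, which drops the correction for length, put Itgal at 17.2% of the alpha chains on hHVS, Itgam at 51.0% on hHVS, Itgax at 31.7% on hHVS and 31.9% on PCL, and Itgad at 0.0606% on hHVS. The alpha chains then stood at 1.13 times Itgb2 on hHVS and 1.07 on PCL, Itga4 to Itgb1 at 0.353 on hHVS and 0.251 on PCL, Itgb7 to Itga4 at 0.0172 on hHVS and 0.0565 on PCL, Itgb1 to Itgb7 at 171 on hHVS and 75.5 on PCL, and Itgax to Itgad at 524 on hHVS.

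Depth limits Itgad most, at about 17 fragments in a hHVS library. Summing both Itgam records was chosen after seeing the data, as were the alternatives for the counts of members.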
